A study of Mus musculus with 2 samples.

Results

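The genes described here make fatty acids in the liver and join them to glycerol as triglyceride. They are 35 genes named by function: 8 enzymes and carriers of fatty acid synthesis, 3 enzymes that supply NADPH, 6 regulators, 4 acyl-CoA synthetases and 14 genes of glycerolipid esterification and triglyceride packaging. The regulator group includes Pnpla3, which encodes an enzyme and is induced by regulators of the pathway. A gene was measured by the probe sets whose platform annotation gave exactly 1 gene symbol equal to its own, averaged per gene. This held for 32 of the 35, out of 22180 genes in all, and 31 of the 32 lay above a floor of 4.20 on the log2 scale, the median level of all genes. G6pdx, Acsl1 and Acsl3 had no such probe set, and Mogat2, at 3.46 on the E4bp4-LKO array and 3.66 on the WT array, lay below the floor.

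The study set livers of E4bp4-LKO male mice against livers of WT male mice. Feeding of a high-fat diet began in both genotypes at 2 months of age and lasted 12 weeks, and liver RNA of several mice was pooled for 1 array per genotype. E4bp4, whose gene symbol is Nfil3, is a basic leucine zipper repressor of transcription. The labels used here state neither how the gene was deleted, nor how many mice made up a pool, nor when livers were taken. With 1 array per genotype no difference has a replicate error or a test, and whatever else set one pool apart from the other cannot be told apart from genotype. Values are log2 intensities normalised by RMA, a method that draws the differences of dim genes towards 0. Differences are given as E4bp4-LKO minus WT.

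Hepatic lipogenesis turns citrate exported from mitochondria into acetyl-CoA, malonyl-CoA and palmitate, with NADPH as the reductant. The factors SREBP-1c, which follows insulin, and ChREBP, which follows sugar, drive most of its genes. The fatty acids, newly made or taken up from blood, are activated to acyl-CoA and esterified stepwise on glycerol 3-phosphate (by acyltransferases, lipins and a diacylglycerol acyltransferase) or on monoacylglycerol. On a high-fat diet much of the fatty acid that reaches esterification comes from the diet.

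Nfil3, the targeted gene, stood at 4.47 on the E4bp4-LKO array and 5.94 on the WT array, a difference of -1.47. Whether its probes lie in the deleted stretch was not examined, so this value is a limited check of the labels. The hepatocyte genes Alb, Apoa1, Apob, Ttr, Serpina1a, Hnf4a, Tat and Asgr1 were all above the floor and differed by between -0.04 and 0.16. Among the 11090 genes above the floor the median difference was -0.02, and the central 95% lay between -0.54 and 0.49. On the E4bp4-LKO array 1.51% of these genes were higher by 1.5-fold or more, and 2.06% were lower by that much.

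The upstream sequences of genes at both ends of the range of differences, and of Mlxipl and Srebf1, are shown here. Each is the 250 bases before an annotated RefSeq start (build GRCm38.p6), read 5′ to 3′ on the strand of the gene. Mogat1 and Fitm2 had the lowest differences and Mid1ip1 and Thrsp the highest. Mlxipl, which encodes ChREBP (0.16), and Srebf1, which encodes SREBP-1 (0.02), lay at neither end. Mlxipl was added to the genes first chosen for display, and the only E-box and sterol regulatory element shown are in its windows. Capitals mark matches, on either strand, to any of 4 motifs: the D-box TTANGTAA, a form of the element that E4BP4 and the PAR bZIP activators bind, the E-box CACGTG, the sterol regulatory element TCACNCCAC and the CCAAT box. Srebf1 has 3 annotated starts, and the window shown was chosen after the search.
Mogat1, chr1:78510810-78511059, plus strand: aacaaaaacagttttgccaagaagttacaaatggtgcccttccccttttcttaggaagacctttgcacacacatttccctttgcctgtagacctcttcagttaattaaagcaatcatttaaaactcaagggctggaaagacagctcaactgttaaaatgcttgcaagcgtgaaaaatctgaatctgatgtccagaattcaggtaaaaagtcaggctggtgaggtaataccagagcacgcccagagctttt
Fitm2, chr2:163472630-163472879, minus strand: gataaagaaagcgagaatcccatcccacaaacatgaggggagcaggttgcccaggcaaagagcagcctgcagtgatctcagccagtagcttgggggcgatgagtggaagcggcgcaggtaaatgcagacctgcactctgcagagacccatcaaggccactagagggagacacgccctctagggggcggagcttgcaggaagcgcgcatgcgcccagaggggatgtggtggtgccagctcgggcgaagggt
Mid1ip1, chrX:10717115-10717364, plus strand: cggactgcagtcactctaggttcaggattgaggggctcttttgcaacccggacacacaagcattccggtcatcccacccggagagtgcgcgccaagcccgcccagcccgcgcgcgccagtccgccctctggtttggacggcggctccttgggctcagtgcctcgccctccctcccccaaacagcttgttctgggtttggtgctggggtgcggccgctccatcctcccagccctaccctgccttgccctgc
Thrsp, chr7:97417551-97417800, minus strand: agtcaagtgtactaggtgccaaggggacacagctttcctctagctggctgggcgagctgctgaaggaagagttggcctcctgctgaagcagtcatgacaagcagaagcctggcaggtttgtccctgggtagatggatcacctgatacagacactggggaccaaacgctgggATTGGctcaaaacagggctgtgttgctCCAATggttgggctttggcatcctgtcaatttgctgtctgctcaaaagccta
Mlxipl, first start, chr5:135089640-135089889, plus strand: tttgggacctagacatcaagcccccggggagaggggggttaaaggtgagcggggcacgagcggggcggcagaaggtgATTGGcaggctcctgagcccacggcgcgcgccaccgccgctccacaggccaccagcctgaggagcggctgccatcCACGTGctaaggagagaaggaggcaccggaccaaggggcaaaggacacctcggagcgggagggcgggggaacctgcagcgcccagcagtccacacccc
Mlxipl, second start, chr5:135106641-135106890, plus strand: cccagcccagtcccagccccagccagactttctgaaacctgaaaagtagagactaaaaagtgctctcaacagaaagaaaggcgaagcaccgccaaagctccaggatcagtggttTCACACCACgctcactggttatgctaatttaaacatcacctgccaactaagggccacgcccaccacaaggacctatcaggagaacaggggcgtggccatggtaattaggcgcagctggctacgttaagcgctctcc
Srebf1, last start, chr11:60210472-60210721, minus strand: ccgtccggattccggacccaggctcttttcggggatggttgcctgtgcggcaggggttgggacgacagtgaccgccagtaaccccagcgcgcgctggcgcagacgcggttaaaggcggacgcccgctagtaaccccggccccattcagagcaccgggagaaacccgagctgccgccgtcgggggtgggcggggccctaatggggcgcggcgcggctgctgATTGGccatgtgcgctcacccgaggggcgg

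The D-box was in none of the 44 windows found for 32 of the 35 genes, and in 2.06% of all 32851 windows of this length in the RefSeq table. This says only that these letters were not in these windows. The E-box was present upstream of 4 genes, Lpin2, Mlx, Mlxipl and Slc25a1, in 4 of the 44 windows, against 6.02% of all windows. The sterol regulatory element was present in 2 of the 44, upstream of Mlxipl and Acsl1, against 1.05% of all windows. Only the exact letters of each motif were searched, so a window without a match to a motif may hold a variant form of it. This includes the windows of Srebf1 and Fasn, whose only matches were CCAAT boxes. The CCAAT box was the common match, in 19 of the 44 windows and 33.8% of all windows. Counted from the start, the second Mlxipl window held the sterol element from base -136, and the first held the E-box from base -98 and a CCAAT box from base -173. Thrsp held CCAAT boxes from bases -79 and -52, and the Srebf1 window shown held a CCAAT box from base -30. The windows of Mogat1, Fitm2 and Mid1ip1 held no match to any of the 4.

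The members divided by role. All 6 genes of the regulator group, Pnpla3 included, were higher on the E4bp4-LKO array, with a median difference of 0.21. Of these, Srebf1 (0.02), Pnpla3 (0.14) and Mlxipl (0.16) differed by less than the disagreement between probe sets of a gene (0.22). The 8 genes of fatty acid synthesis lay on both sides of 0, with a median of -0.04. Of the 13 esterification genes above the floor 10 were lower, with a median of -0.26. Over all 31 members above the floor the median was -0.08, with 12 above 0 and 19 below 0, where 45.5% and 54.5% of all genes above the floor lay. Mogat1 alone of the members passed 1.5-fold, on the lower side, where 2.06% of all genes above the floor did. The 1.2-fold line was passed on the higher side by 2 of the 31, both regulators, and on the lower side by 7 of the 31, all of them esterification genes. Of all genes above the floor, 10.6% passed this line on the higher and 12.7% on the lower side.

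**Figure D1:**
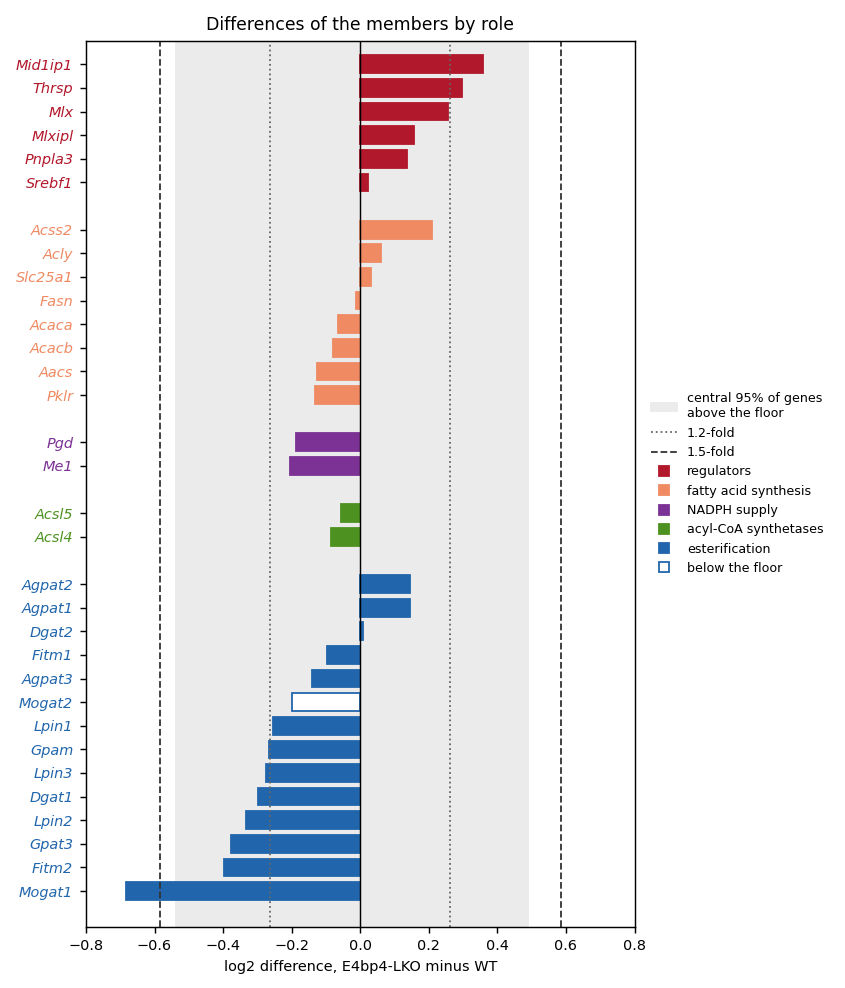
The log2 difference, E4bp4-LKO minus WT, of each measured member is drawn as a bar, in colours by role and sorted within a role; the open bar is Mogat2, which lay below the floor. Grey shading is the central 95% of all genes above the floor, dotted and dashed lines are 1.2-fold and 1.5-fold, and of the members only Mogat1 (-0.68) lies outside the shading.

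The regulator group had the highest median difference of the roles. Mid1ip1, which encodes a protein that activates acetyl-CoA carboxylase by helping it polymerise, averaged 5.43 on the E4bp4-LKO array and 5.07 on the WT array over its 3 probe sets, a difference of 0.36. Each of the probe sets was higher, by 0.50, 0.33 and, for one below the floor, 0.24. Thrsp, also called Spot 14, a thyroid hormone and carbohydrate responsive relative of Mid1ip1 that acts with it, stood at 10.93 on the E4bp4-LKO array and 10.63 on the WT array, a difference of 0.30. These closely related proteins were thus the members with the highest differences, and 5.89% and 8.39% of all genes above the floor lay higher than Mid1ip1 and Thrsp.

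Mlxipl, the gene of ChREBP, stood at 9.84 on the E4bp4-LKO array and 9.68 on the WT array, a difference of 0.16. Mlx, the obligate DNA-binding partner of ChREBP, stood at 8.09 on the E4bp4-LKO array and 7.84 on the WT array, a difference of 0.25, just under 1.2-fold. Both partners of this heterodimer were thus higher on the E4bp4-LKO array by less than 1.2-fold. Srebf1 was nearly equal, at 8.39 on the E4bp4-LKO array and 8.37 on the WT array, a difference of 0.02. It had 1 probe set, so SREBP-1a and SREBP-1c were not told apart. Pnpla3, a lipid droplet lipase and transacylase gene that SREBP-1c and ChREBP induce, stood at 6.06 on the E4bp4-LKO array and 5.93 on the WT array, a difference of 0.14.

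**Figure D2:**
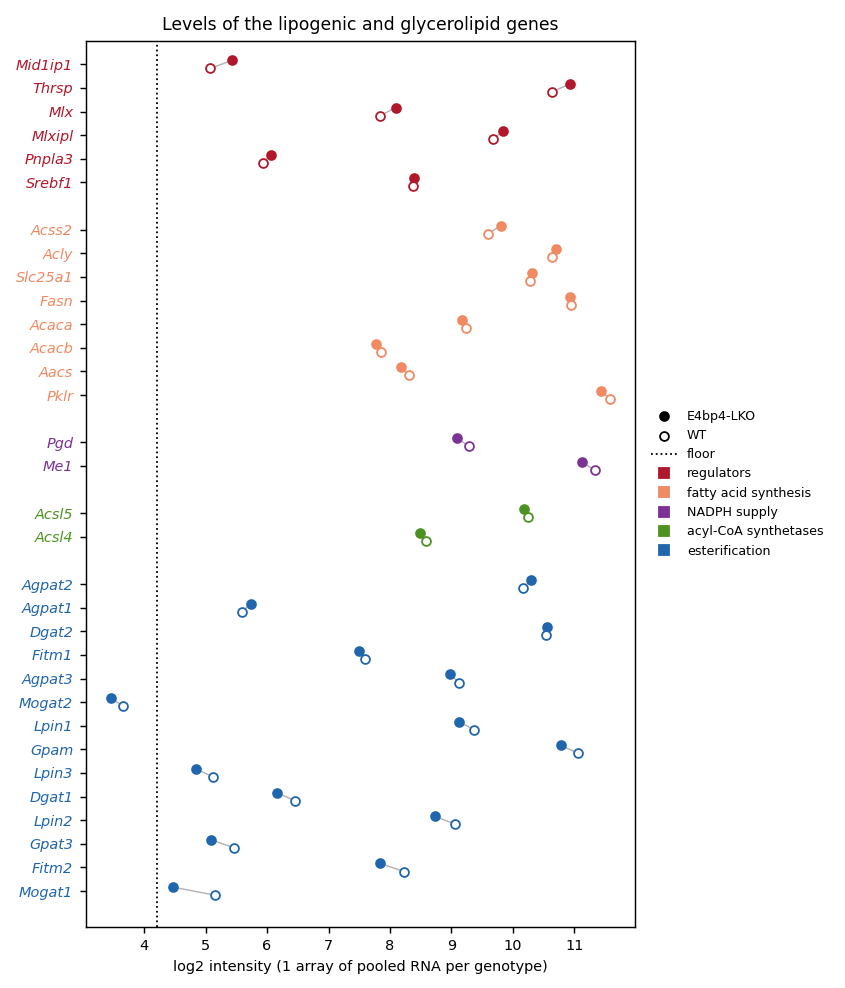
Each row is a measured member, coloured by role, with its log2 intensity on the E4bp4-LKO array (filled, upper point) and on the WT array (open, lower point); the dotted line is the floor of 4.20. The points of Fasn and Srebf1 almost coincide, the filled points of Mid1ip1, Thrsp, Mlx and Acss2 lie to the right of the open ones, and those of Gpam, Gpat3, the lipins, Mogat1, Dgat1 and Fitm2 lie to the left.

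The carbon path from citrate to palmitate differed little between the arrays. Fasn, the synthase that builds palmitate, stood at 10.93 on the E4bp4-LKO array and 10.94 on the WT array, a difference of -0.01. Acaca, the cytosolic carboxylase that makes malonyl-CoA for synthesis, stood at 9.18 on the E4bp4-LKO array and 9.24 on the WT array, a difference of -0.07. Acacb, the mitochondrial carboxylase whose malonyl-CoA restrains fatty acid import, stood at 7.78 on the E4bp4-LKO array and 7.86 on the WT array, a difference of -0.08. The 3 central enzymes of malonyl-CoA and palmitate formation were therefore within 0.08 of equality.

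Of the genes that bring carbon to this path, Acly, which cleaves citrate to acetyl-CoA, stood at 10.71 on the E4bp4-LKO array and 10.65 on the WT array, a difference of 0.06. Slc25a1, the carrier that exports citrate from mitochondria, stood at 10.32 on the E4bp4-LKO array and 10.28 on the WT array, a difference of 0.03. Acss2, which makes acetyl-CoA from acetate, had the highest difference of the group, 0.21, from 9.81 on the E4bp4-LKO array and 9.60 on the WT array. Acly and Slc25a1 were thus nearly equal on the arrays, and Acss2 differed by less than 1.2-fold. Aacs, which activates acetoacetate for lipid synthesis, stood at 8.18 on the E4bp4-LKO array and 8.31 on the WT array, a difference of -0.12. Pklr, liver pyruvate kinase and a ChREBP target, stood at 11.44 on the E4bp4-LKO array and 11.58 on the WT array and had the lowest difference of the group, -0.13.

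Both measured NADPH genes were lower. Me1, the cytosolic malic enzyme, stood at 11.13 on the E4bp4-LKO array and 11.33 on the WT array, a difference of -0.20. Pgd, the second dehydrogenase of the pentose phosphate pathway, stood at 9.10 on the E4bp4-LKO array and 9.29 on the WT array, a difference of -0.19. The acyl-CoA synthetases, which activate fatty acids for either esterification or oxidation, were measured by Acsl5 and Acsl4. Acsl5, an isoform of liver and intestine, stood at 10.19 on the E4bp4-LKO array and 10.24 on the WT array, a difference of -0.05, and Acsl4, which favours arachidonate, differed by -0.09 (8.50 on the E4bp4-LKO array, 8.58 on the WT array).

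Of the steps of the glycerol 3-phosphate route, the first and the lipin step were lower in every member measured, and the acyltransferases of the other steps differed in both directions. At the first step of the glycerol 3-phosphate route, Gpam, the mitochondrial acyltransferase GPAT1, stood at 10.79 on the E4bp4-LKO array and 11.06 on the WT array, a difference of -0.26. Gpat3, an acyltransferase of the endoplasmic reticulum, averaged 5.09 on the E4bp4-LKO array and 5.47 on the WT array, a difference of -0.38. Its brighter probe set differed by -0.55 and its dimmer one, which lay below the floor on both arrays, by -0.21. Both first-step enzymes of the list were thus lower on the E4bp4-LKO array. Gpat4, the other endoplasmic reticulum isoform and no member, differed by -0.01.

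The second step was split. Agpat2, the main liver acyltransferase that makes phosphatidate, stood at 10.30 on the E4bp4-LKO array and 10.16 on the WT array, a difference of 0.14. Agpat1 also differed by 0.14, from 5.74 on the E4bp4-LKO array and 5.59 on the WT array, while Agpat3 differed by -0.14, from 8.98 on the E4bp4-LKO array and 9.12 on the WT array. Agpat1 and Agpat2 were 2 of the 3 esterification genes above 0.

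All 3 lipins, the phosphatases that turn phosphatidate into diacylglycerol, were lower. Lpin1, which also acts as a transcriptional coactivator, stood at 9.12 on the E4bp4-LKO array and 9.37 on the WT array, a difference of -0.25. Lpin2, the lipin most typical of liver, averaged 8.73 on the E4bp4-LKO array and 9.06 on the WT array, a difference of -0.33, and its probe sets differed by -0.32 and -0.34. Lpin3 stood at 4.85 on the E4bp4-LKO array and 5.12 on the WT array, a difference of -0.28. The lipin step was therefore lower on the E4bp4-LKO array in every member and in both probe sets of Lpin2.

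At the last step, the diacylglycerol acyltransferases parted. Dgat1, which in liver handles mainly fatty acid from outside the cell, stood at 6.16 on the E4bp4-LKO array and 6.45 on the WT array, a difference of -0.30. Dgat2, the unrelated enzyme tied to newly made fatty acid, was nearly equal, at 10.55 on the E4bp4-LKO array and 10.54 on the WT array, a difference of 0.01. Mogat1, which makes diacylglycerol from monoacylglycerol and is induced in fatty mouse liver, stood at 4.46 on the E4bp4-LKO array and 5.15 on the WT array, a difference of -0.68 or 1.61-fold. Only 1.37% of all genes above the floor had a lower difference than Mogat1. Its E4bp4-LKO value lay close to the floor, so the size of this difference is uncertain. Mogat2, the intestinal isoform, differed by -0.20 below the floor.

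Fitm2, a protein of the endoplasmic reticulum needed for normal droplet budding, stood at 7.84 on the E4bp4-LKO array and 8.23 on the WT array, a difference of -0.40. Fitm1, its relative in skeletal muscle and heart, averaged 7.49 on the E4bp4-LKO array and 7.59 on the WT array, a difference of -0.10. Its probe sets lay far from this average. The brighter one differed by -0.22 (9.62 on the E4bp4-LKO array, 9.83 on the WT array). The dimmer one differed by 0.02 (5.37 on the E4bp4-LKO array, 5.35 on the WT array). Skeletal muscle markers moved in the same direction as the Fitm1 average: 9 of the 10 lay above the floor and all 9 were lower. Their linear intensities summed to 381 on the E4bp4-LKO array and 744 on the WT array. Myh1, Myh4 and Mylpf had E4bp4-LKO values below the floor, so the size of their differences is uncertain. The part of muscle in the Fitm1 difference was not tested. Without Fitm1 and Fitm2, a choice made after seeing the data, the esterification median was also -0.26. This median is the value of Gpam, with Fitm2 below it and Fitm1 above it. Leaving both out therefore could not move the median and says nothing on muscle.

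**Figure D3:**
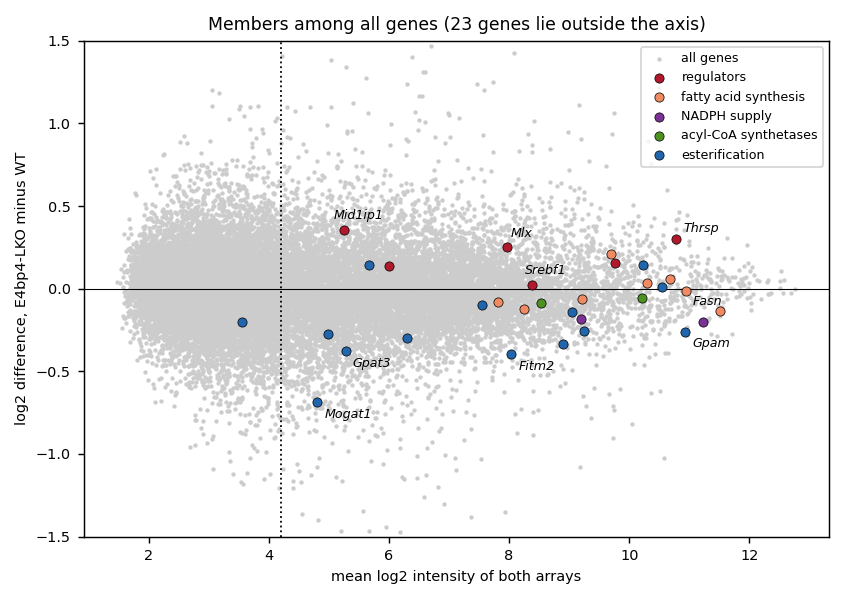
The log2 difference, E4bp4-LKO minus WT, is plotted against the mean log2 intensity of both arrays for all genes (grey) and the members (coloured by role); the dotted line is the floor, and 23 genes lie outside the vertical axis. Of the esterification genes above the floor 10 of 13 lie below 0, with Agpat1, Agpat2 and Dgat2 above it, and all 6 regulators lie above 0.

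Esterification genes were lower than synthesis genes in their difference between the arrays. The esterification median minus the synthesis median was -0.23, or -0.19 when NADPH supply was counted with synthesis and -0.29 when the regulators were counted with it too. Of the 13 esterification genes, 9 lay below Pklr, the lowest synthesis gene, and none above Acss2, the highest. Both medians are small beside the spread of all genes. Of the 16 members with a mean level above 9, none lay outside the central 95% of the 972 genes of that level, which ran from -0.39 to 0.47. None of the 9 members between 6 and 9 did either (5275 genes, -0.45 to 0.48), and of the 6 dimmer members 1, Mogat1, did (4843 genes, -0.61 to 0.50). The members closest to the 1.2-fold line were Gpam (-0.26), just past it, and Mlx (0.25) and Lpin1 (-0.25), just short of it. With the intensity trend removed, or the median of all genes set to 0, 3 members instead of 2 were past the line on the higher side and 5 instead of 7 on the lower side.

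Genes that control or feed the pathway lay on both sides of 0. Of the 10 measured genes that control SREBP-1c and ChREBP, 7 were above 0, with a median of 0.04. Insig2, which holds SREBP in the endoplasmic reticulum, differed by 0.29 and was the only one at least 1.2-fold higher. Usf1 and Nr1h3, which encodes the oxysterol receptor LXRα, differed by 0.22 and 0.21, Scap, the SREBP escort, by 0.15 and Insig1 by -0.11. Sugar supply genes had a median of -0.18 over 7 genes, with Pfkl, a phosphofructokinase, at -0.37, Gpd1, which makes glycerol 3-phosphate, at -0.26, Tkfc at -0.21 and the glucose transporter gene Slc2a2 at -0.18.

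The other glycerolipid enzymes had a median of -0.05 over 10 genes, and only Lclat1, a lysocardiolipin acyltransferase, was at least 1.2-fold lower (-0.32). Chka, a choline kinase, differed by 0.22, and Agpat5 and Cds2, a CDP-diacylglycerol synthase, by -0.11 each. Triglyceride breakdown genes had a median of -0.17 with 3 of 7 at least 1.2-fold lower. These were Mgll, the monoacylglycerol lipase (8.10 on the E4bp4-LKO array, 8.49 on the WT array, -0.40), Pnpla2, the adipose triglyceride lipase ATGL (8.60 on the E4bp4-LKO array, 8.97 on the WT array, -0.38), and Lipe, hormone-sensitive lipase (4.93 on the E4bp4-LKO array, 5.29 on the WT array, -0.36). Lipa, the lysosomal lipase, differed by -0.17, and Abhd5, the coactivator of ATGL, by 0.09.

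The medians of the remaining neighbouring lists were near 0, while some of their genes differed by more. Other NADPH enzymes had a median of -0.07 over 7 genes, with Rpia at -0.25, Taldo1 at -0.18, Rpe at 0.17 and Idh1 at 0.13. Mitochondrial fatty acid synthesis had a median of 0.00344 over 4 genes, with Oxsm at -0.27 and Cbr4 at 0.09. Other acyl-CoA synthetases had a median of 0.00851 over 7 genes. Of these, Slc27a4, a fatty acid transport protein, differed by -0.46 (6.26 on the E4bp4-LKO array, 6.72 on the WT array), Acsm5 by -0.20, Acsm1 by 0.18 and Slc27a1 by -0.18.

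**Figure D4:**
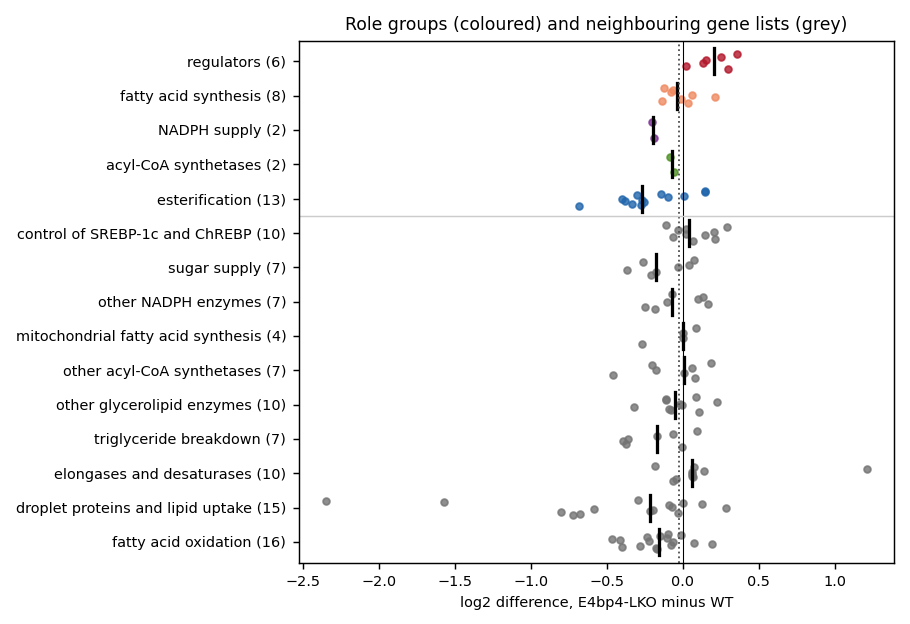
Each point is the log2 difference, E4bp4-LKO minus WT, of a gene above the floor, black bars are list medians, the dotted line is the median of all genes above the floor, and numbers in brackets are genes per list. Among the grey lists the median of droplet proteins and lipid uptake (-0.22) lies nearest to the esterification median (-0.26), and that of the other glycerolipid enzymes (-0.05) nearest to the synthesis median (-0.04).

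Synthesis and esterification were set beside 3 adjoining sets of lipid genes. Elongases and desaturases, which modify the palmitate that Fasn makes, had a median of 0.06 over 10 genes, and Elovl6 and Scd1, which SREBP-1c induces together with Fasn, differed by 0.06 and -0.06. Elovl3 was the exception at 1.21, followed by Elovl1 at -0.18, Elovl5 at 0.14 and Elovl2 at 0.08. Droplet proteins and lipid uptake genes had a median of -0.22 over 15 genes, 7 of them at least 1.2-fold lower. Among them Cidea differed by -2.35, Cidec by -1.57, Plin4 by -0.80, Vldlr by -0.72 and Pparg by -0.67. PPARγ induces Mogat1 (-0.68) in mouse liver, and the part of Pparg in the Mogat1 difference was not tested. Fatty acid oxidation genes had a median of -0.16 over 16 genes, with Acot2 at -0.46, Bdh1 at -0.41, Pdk4 at -0.40 and Hadha at -0.28. No test of the difference between any of these lists can be had from these 2 arrays.

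Markers of other cell types and some clock genes also differed between the pools. In whole liver RNA fewer cells of a type and less RNA per cell cannot be told apart. Adipoq, Lep, Plin1 and Slc2a4, markers of adipocytes, lay below the floor, and of the 5 measured adipocyte markers only Retn lay above it, at 4.55 on the E4bp4-LKO array and 4.67 on the WT array. Macrophage markers were lower in 6 of 8, with a median of -0.35. Their linear sums were 1230 on the E4bp4-LKO array and 1339 on the WT array. Gpnmb differed most (-1.98) and Itgax by -0.54, both with an E4bp4-LKO value below the floor, so that the size of these differences is uncertain. Trem2 differed by -0.67, Cd68 by -0.43 and Adgre1 by -0.27. Timd4 and Clec4f, markers of resident macrophages, differed by 0.35 and 0.17, and Csf1r by -0.05. The part of macrophages in the lower values of the dim members Gpat3 and Mogat1 was not tested. Many lipogenic genes follow the day, and the 11 clock genes above the floor had a median of -0.05, with 4 above 0 and 7 below 0. Arntl differed by 0.90, Dbp by -1.08, Per3 by -0.68 and Nr1d1, the repressor REV-ERBα, by -0.65. Ciart differed by -0.63, Npas2 by 0.60, Cry1 by 0.32 and Tef by -0.22. Nr1d2 (0.04), Per1 (-0.03) and Clock (-0.05) hardly differed. The part of the hour of collection in the members' differences was not tested.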

How the data were processed

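Per the submitters' processing notes, the authors processed the arrays with RMA in R 3.4.0. The deposited table gives a log2 intensity for each probe set on each array, from 1.18 to 12.82 (median 3.75) on the E4bp4-LKO array and from 1.25 to 12.78 (median 3.74) on the WT array. Per the labels' protocols, biotinylated cDNA was made from 400 ng of total RNA with the WT Plus kit. Scanner files and detection calls were not used here.

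The table held 41345 probe sets, of which 23521 had 1 gene symbol, 1814 several and 16010 none. The 37 probe sets of the members all matched the RefSeq symbol of their Entrez identifier (GRCm38.p6). Genes were averaged over probe sets with Python 3.11.15, pandas 2.3.3 and NumPy 2.4.6. The floor was the median, over genes, of the average of the arrays. With 1 array per genotype no test was made, and the number of arrays limits the precision. The standard deviation of differences between the probe sets of a gene, over 555 genes with 2, was 0.22 log2 units. The averaging and the counts were checked on simulated data. Every member is named, and of each neighbouring list up to 4 genes above the floor with the largest absolute difference plus a fixed set of well known ones. Members and lists were chosen with earlier results of these data known. Alternatives changed the floor, the choice of probe sets and the scale.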

Additional observations from a re-analysis of the deposited data

How the results depend on the processing

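No paired analysis was possible because each genotype had 1 array and no result came from a test. The medians of the 5 roles, of all members and of esterification minus synthesis kept their sign, and moved by at most 0.1 log2 units, under each of the other settings and without Fitm1 and Fitm2. The settings were a floor at the 75th percentile of level (6.28), no floor, the brightest probe set of a gene, removal of the intensity trend, the median of all genes set to 0, and use of probe sets with several symbols. Esterification minus synthesis ran from -0.23 to -0.22. Setting the median of all genes to 0 shifts both medians alike, so it could not change this difference. Leaving out Fitm1 and Fitm2 could not change it either, since they lie on opposite sides of the esterification median. The 2 other choices of probe sets left it as it was. With the higher floor fewer members were counted, since dim ones drop out by construction: 0 were lower by 1.5-fold (Mogat1 was left out), while 1 was higher and 4 were lower by 1.2-fold. No member that differed by 1.2-fold changed sign under any alternative. Of the 31 members above the floor, 20 differed by less than the disagreement between probe sets of a gene (0.22), and with 1 array per genotype the variation between mice is unknown.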
